A study of Homo sapiens with 12 samples.

Results

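The transcripts described here are those of 10 genes that cells switch on when oxygen is short: VEGFA, CA9, ADM, BNIP3, BNIP3L, NDRG1, SLC2A1, DDIT4, PDK1 and P4HA1. They were chosen by gene symbol, as every probe annotated to any of these 10 symbols, and make up 10 of the 25157 gene symbols on the array. The array holds 48797 probes, and 14 of them carry these symbols. Probes were tested where 3 or more of the 12 arrays read at least 64. Of the 14 probes 12 did so, and these 12 cover all 10 genes. The other 2 probes were dim throughout. The VEGFA probe ILMN_1693060 read between -19.9 and 19.9, and the P4HA1 probe ILMN_1747442 read between -0.272 and 65.6.

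The cells were HT1080, an established human fibrosarcoma line. All of the groups had been stably transduced with an epitope-tagged, full-length ING2, a chromatin protein that recognises a methylated histone tail and works with histone deacetylases, and the study's text states that the cells' own ING2 is depleted as a result. The 4 groups were ING2_6K with 100 uM etoposide, ING2_6K with DMSO, ING2_WT with 100 uM etoposide and ING2_WT with DMSO, with 3 arrays in each, numbered 1 to 3. ING2_6K is a mutant form of ING2 that no longer binds the lipid PtdIns(5)P, ING2_WT is the wild-type form, DMSO is the vehicle, and etoposide is a topoisomerase II poison that causes DNA double-strand breaks. The labels give 16 h of treatment and the study's text another time for its expression arrays. How many clones each transduced line came from is not given in the sources used here. The study's text calls the replicates of its expression data biological. The labels name no growth in low oxygen, and the comparisons ask how these transcripts differed between the ING2 forms and between etoposide and vehicle.

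Cells sense oxygen through prolyl hydroxylases (the EGLN enzymes) that mark the alpha subunits of the hypoxia-inducible factors (HIF1A and EPAS1) for destruction by the VHL complex. When oxygen is short, or the hydroxylases are otherwise inhibited, the alpha subunit persists, pairs with ARNT and binds short DNA motifs near its target genes. The 10 genes are among the best known of these targets. VEGFA and ADM encode secreted factors that act on blood vessels. CA9 encodes a membrane carbonic anhydrase that regulates pH. SLC2A1 encodes the glucose transporter GLUT1, and PDK1 a mitochondrial kinase that inhibits pyruvate dehydrogenase. BNIP3 and BNIP3L are mitochondrial receptors for autophagy. DDIT4 (REDD1) restrains the growth kinase mTORC1 and also answers to DNA damage and other stresses. NDRG1 is a cytoplasmic stress-response protein, and P4HA1 is the catalytic subunit of the prolyl hydroxylase that matures collagen. In tumour lines, CA9 and SLC2A1 are widely used as markers of the response.

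The HIF dimer recognises the core ACGTG or GCGTG, read on either strand (CACGT or CACGC on the other). Promoter sequences from RefSeq (GRCh38.p14) were at hand for 7 of the genes, with 2 start sites for PDK1. The 150 bases just upstream of the annotated start are printed below, 5′ to 3′ on the gene's strand and with each core match in capitals, because they show how differently the genes are equipped right at their starts. At least 1 match lay in this window for 6 of the 7 genes, against 32.2% of the same windows of all 35116 promoters in the table. For ACGTG alone the count was 5 of 7 genes, against 12.6% of all promoters. A gene was counted where any of its start sites had a match, whereas the shares are of single promoter windows. A match is a description of letters and does not show binding.
CA9: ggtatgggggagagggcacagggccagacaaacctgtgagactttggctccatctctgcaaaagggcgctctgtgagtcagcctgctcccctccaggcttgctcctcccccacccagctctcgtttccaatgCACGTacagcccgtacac
BNIP3: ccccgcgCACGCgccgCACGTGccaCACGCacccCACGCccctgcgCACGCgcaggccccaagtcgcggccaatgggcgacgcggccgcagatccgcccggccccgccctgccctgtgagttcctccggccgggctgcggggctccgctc
P4HA1: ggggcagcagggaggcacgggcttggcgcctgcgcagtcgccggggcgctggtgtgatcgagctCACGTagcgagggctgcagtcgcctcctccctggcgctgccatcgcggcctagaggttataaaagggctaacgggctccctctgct
DDIT4: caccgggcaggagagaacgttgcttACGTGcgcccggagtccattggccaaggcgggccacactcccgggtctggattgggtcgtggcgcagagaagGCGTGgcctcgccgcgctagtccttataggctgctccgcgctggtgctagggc
PDK1: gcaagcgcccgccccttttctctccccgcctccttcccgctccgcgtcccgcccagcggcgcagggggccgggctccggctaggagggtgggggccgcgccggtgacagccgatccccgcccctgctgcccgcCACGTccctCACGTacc
ADM: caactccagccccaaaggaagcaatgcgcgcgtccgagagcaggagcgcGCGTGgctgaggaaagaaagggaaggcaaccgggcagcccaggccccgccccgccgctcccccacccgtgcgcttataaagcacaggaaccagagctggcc
SLC2A1: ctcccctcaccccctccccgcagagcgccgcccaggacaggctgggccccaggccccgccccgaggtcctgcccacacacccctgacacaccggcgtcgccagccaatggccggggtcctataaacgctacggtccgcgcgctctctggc
The CA9 window (chr9:35673778-35673927, plus strand) holds a single match, which starts at position -18 counted from the start site. BNIP3 (chr10:131981924-131982073, minus strand) holds 6 overlapping or closely spaced matches between positions -143 and -104, among them the palindrome CACGTG, found in 4.57% of all promoter windows. P4HA1 (chr10:73096867-73097016, minus strand) has a match at -86, DDIT4 (chr10:72273774-72273923, plus strand) at -125 and -53, and ADM (chr11:10304923-10305072, plus strand) at -101. The printed PDK1 window (chr2:172555940-172556089, plus strand) has 2 matches, at -17 and -8, and the window of its other start site has none. SLC2A1 (chr1:42958869-42959018, minus strand) has none in the printed window.

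Before any group was compared, the arrays were checked against their labels. CDKN1A (p21) and MDM2, which p53 turns on after DNA damage, and TOP2A, which dividing cells make, went with the treatment labels in ING2_WT and against them in ING2_6K. CDKN1A (ILMN_1784602) read 5417, 5896 and 3069 on arrays 1, 2 and 3 labelled ING2_6K etoposide and 16293, 14970 and 11504 on those labelled ING2_6K DMSO, against 15550, 14618 and 16638 in ING2_WT etoposide and 4277, 3671 and 2964 in ING2_WT DMSO. TOP2A was 1937 to 3319 on the arrays labelled ING2_6K etoposide and 67.1 to 127 on those labelled ING2_6K DMSO. Groups are therefore called by their labels throughout, and for ING2_6K the direction of any etoposide effect holds only as labelled. Under the same treatment label, ING2_6K and ING2_WT arrays also stood on opposite sides by these markers. Each comparison of ING2_6K with ING2_WT in etoposide or in DMSO therefore holds only as labelled too, and cannot be read as one under matched DNA damage. The ING2 probe ILMN_1671265 was bright, at 21056 and 20293, on the arrays labelled ING2_6K etoposide 1 and 2 only, and read 112 to 455 on the other 10 arrays. The part of these features in the results below was not tested. As for the cell type, 7 of 8 mesenchymal markers were at 64 or more on all 12 arrays, against 1 of 7 epithelial, 0 of 6 blood and 0 of 3 endothelial markers.

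In every group the array numbered 3 lay away from the other arrays. A term for the arrays numbered 3 called 5284 of the 15459 probes tested. The array ING2_WT etoposide 3 was the farthest from the rest (172 on the first principal component, which held 35.8% of the variance, against -43.5 to 22.0 for the other 11 arrays). On that array different probes of single genes disagreed: ACTB read 54.7 on ILMN_1777296 but 20662 on ILMN_2152131, and HIF1A read 41.0 on ILMN_1763260 but 4926 on ILMN_2379788. Comparisons are therefore given over all 12 arrays and over the 8 numbered 1 and 2, with arrays 3 apart. Differences are log2 differences in quantile-normalised intensity with their standard error (SE), tested with limma, and a probe is called where its p, adjusted over all probes tested, is under 0.05. In bulk RNA, fewer cells that make a transcript and less transcript per cell cannot be told apart.

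Most of the hypoxia-response transcripts were brighter in ING2_6K than in ING2_WT on the arrays numbered 1 and 2. Under each treatment label the damage markers differed between the forms, as given above, so these differences hold as labelled. Among etoposide arrays 11 of the 12 probes were called higher in ING2_6K and 0 lower, against 19.4% of all 14242 probes tested called higher, and PDK1 was the probe not called. The median difference over the 12 probes was 1.81, against -0.0178 over all probes. Among DMSO arrays 9 of the 12 were called higher and 0 lower, against 11.9% of all probes called higher, with ADM, DDIT4 and PDK1 not called. The median was 1.31, against 0.0312 over all probes. With each of the 8 arrays left out in turn, 9 to 12 probes were called in etoposide and 6 to 9 in DMSO. CA9 passed the filter on these arrays through ING2_6K alone and so had to differ; of the other 11 probes 10 were called in etoposide and 8 in DMSO. With no filter on dim probes DDIT4 lost its call in etoposide (limma adjusted p = 0.121), and BNIP3 (0.0818) and the VEGFA probes ILMN_1803882 (0.0588) and ILMN_2375879 (0.0908) lost theirs in DMSO, while CA9 kept its call under both labels. With single arrays left out, the probes that gained or lost the call in etoposide were DDIT4 and ADM, below, and PDK1, called without ING2_WT DMSO 1 or 2 (limma adjusted p = 0.0499 and 0.0495), and in DMSO they were BNIP3, BNIP3L (ILMN_2045419) and VEGFA (ILMN_2375879), all 3 of which were lost without ING2_WT DMSO 2 (limma adjusted p = 0.0667, 0.0719 and 0.0599). BNIP3 was also lost without ING2_WT DMSO 1, BNIP3L without ING2_6K DMSO 1 and VEGFA without ING2_6K DMSO 2 (limma adjusted p = 0.0606, 0.0554 and 0.0684).

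The same comparisons gave far fewer calls over all 12 arrays. In etoposide only CA9 was called, higher in ING2_6K, that is 1 of 12 probes against 2.98% of all probes called higher. CA9 passed the filter only with its ING2_6K arrays, so its call is a description, as given below. The other 11 had adjusted p between 0.0797 and 0.860, and 10 of the 12 had an unadjusted p under 0.05. Counts of unadjusted p, here and below, have no share over all probes beside them. They cannot be read as a result about these genes. With the replicate number as a block, 5 of 12 were called higher (both VEGFA probes, CA9, SLC2A1 and P4HA1), against 7.15% of all probes called higher. In DMSO 0 of 12 were called, against 2.20% of all probes called in either direction (also 0 of 12 with the replicate number as a block, against 3.32%), and 1 had an unadjusted p under 0.05. Array weights, which let limma count discordant arrays for less, gave 10 calls in etoposide and 9 in DMSO, all higher in ING2_6K. With these weights, 3225 (etoposide) and 2315 (DMSO) of all 15459 probes were called higher.

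**Figure D1:**
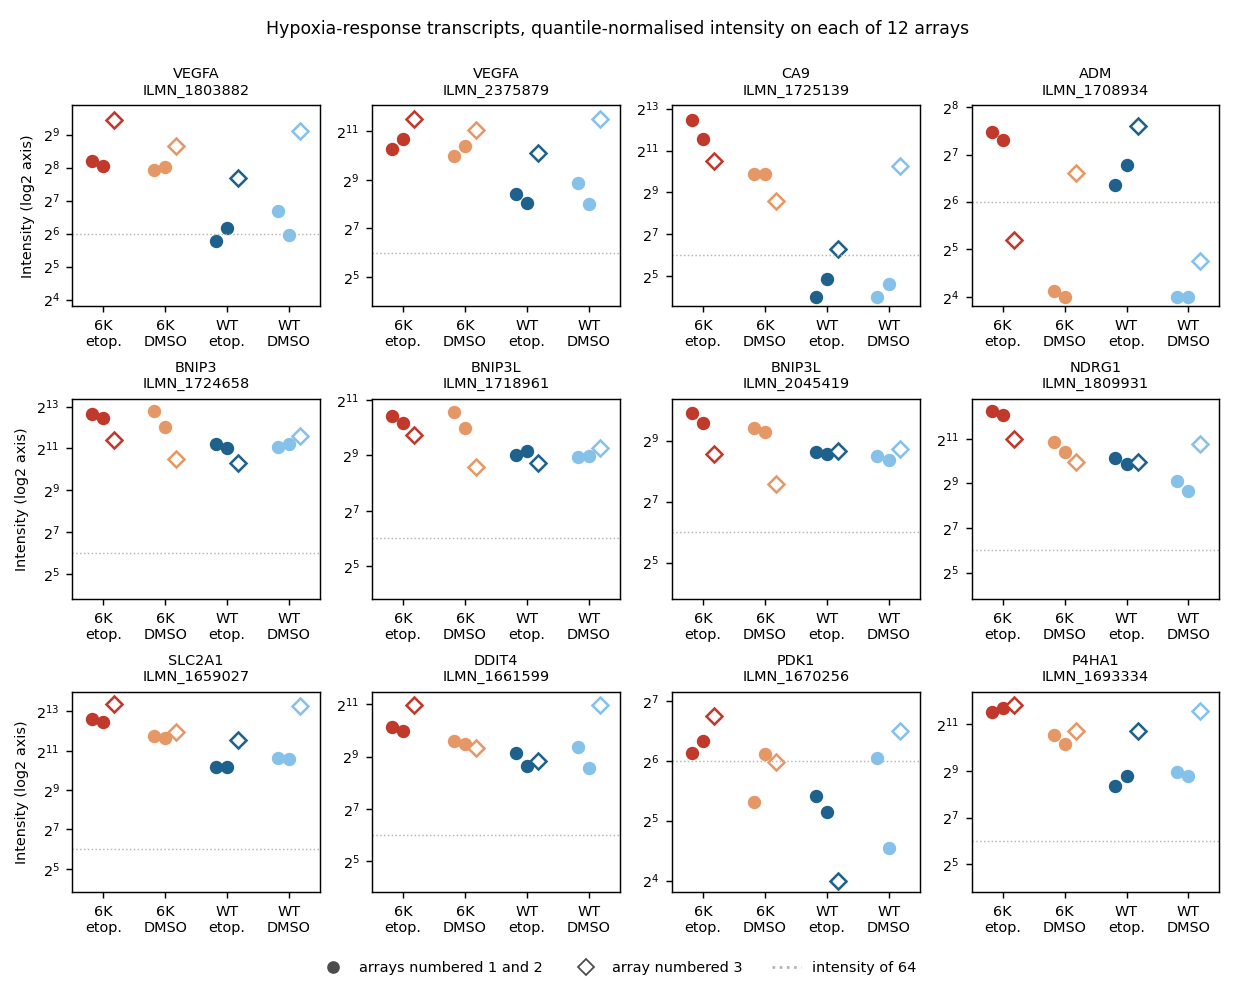
Quantile-normalised intensity (log2 axis; values under 16 are drawn at 16) of the 12 probes that were tested, on each of the 12 arrays, in the groups ING2_6K etoposide, ING2_6K DMSO, ING2_WT etoposide and ING2_WT DMSO; filled circles are arrays numbered 1 and 2, open diamonds arrays numbered 3, and the dotted line is an intensity of 64. CA9 lies between 928 and 5662 on the ING2_6K arrays 1 and 2 and under 30 on the ING2_WT arrays 1 and 2, and reaches 1247 on ING2_WT DMSO 3.

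CA9 had the widest range of the 12 probes on the log2 scale, also with values under 64 set to 64 (6.47, against 0.75 to 3.57 for the others). On the arrays labelled ING2_6K etoposide it read 5662, 3019 and 1452 (arrays 1, 2 and 3) and on those labelled ING2_6K DMSO 932, 928 and 379. In ING2_WT it read -2.23, 29.2 and 78.6 with etoposide and 12.4, 25.0 and 1247 with DMSO. The carbonic anhydrase transcript was thus at background on 4 of 4 ING2_WT arrays numbered 1 and 2 and bright on all ING2_6K arrays. With values under 64 set to 64, CA9 in etoposide was at least 64.6-fold higher in ING2_6K than in ING2_WT on arrays 1 and 2. Over all 12 arrays it was at least 42.6-fold higher. In DMSO the bound was at least 14.5-fold on arrays 1 and 2. CA9 passed the filter on arrays 1 and 2 through ING2_6K alone, so its calls there are a description. Their limma adjusted p was 0.000456 in etoposide and 0.000536 in DMSO, and both calls were kept with no filter, as given above. The etoposide difference was also called over all 12 arrays (limma adjusted p = 0.0227). Of the ING2_WT arrays only etoposide 3 and DMSO 3 were at 64 or more, too few to pass the filter. CA9 thus passed only with its ING2_6K arrays, and this call is a description too. Unlike the calls on arrays 1 and 2, it was lost with no filter (limma adjusted p = 0.0908). At arrays 3 the DMSO pair ran the other way, with 379 in ING2_6K and 1247 in ING2_WT, and over all 12 arrays the DMSO difference was not called (limma adjusted p = 0.439). The call over all 12 arrays in etoposide was lost without any of 5 single arrays: limma adjusted p was 0.0736 and 0.0525 without ING2_WT etoposide 1 and 2, and 0.0913, 0.0769 and 0.0589 without ING2_6K etoposide 1, 2 and 3.

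VEGFA, the main growth factor for blood vessels, was measured by 2 of the probes tested. On ILMN_2375879 the arrays labelled ING2_6K read 1230, 1633 and 2931 with etoposide and 999, 1331 and 2097 with DMSO. The ING2_WT arrays read 341, 265 and 1106 with etoposide and 472, 258 and 2864 with DMSO. Array 3 was the highest of its group in all 4 groups, and on arrays 1 and 2 every ING2_6K value exceeded every ING2_WT value. The difference between ING2_6K and ING2_WT on arrays 1 and 2 was 2.24 ± 0.33 (SE) in etoposide and 1.72 ± 0.33 in DMSO (limma adjusted p = 0.00338 and 0.0128), the DMSO call being the one lost with no filter. The dimmer probe ILMN_1803882 gave 2.18 ± 0.27 and 1.66 ± 0.27. At arrays 3 the difference was 1.41 in etoposide and -0.45 in DMSO on ILMN_2375879, single pairs with no error.

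ADM, the vasodilator peptide adrenomedullin, was at 64 or more on arrays 1 and 2 with etoposide only, and passed the filter on these arrays through those groups. Its etoposide calls there are therefore a description. It read 177, 158 and 36.7 on the arrays labelled ING2_6K etoposide and 17.5, -16.7 and 97.1 on those labelled ING2_6K DMSO. In ING2_WT it read 82.6, 110 and 193 with etoposide and -2.73, 0.558 and 26.8 with DMSO. The ING2_WT groups did not overlap on any array, whereas in ING2_6K arrays 1 and 2 were higher with etoposide and array 3 was lower. With values under 64 set to 64, etoposide arrays exceeded DMSO arrays at least 2.61-fold in ING2_6K and at least 1.49-fold in ING2_WT on arrays 1 and 2. With values under 16 set to 16, limma adjusted p on these arrays was 0.000423 in ING2_6K and 0.000656 in ING2_WT. Neither difference was called over all 12 arrays (limma adjusted p = 0.543 in ING2_6K and 0.0739 in ING2_WT). The ING2_WT difference was called without ING2_6K DMSO 3 or without ING2_6K etoposide 3, arrays that are in neither of the groups compared. ADM was called higher in ING2_6K than in ING2_WT in etoposide on arrays 1 and 2 (0.83 ± 0.18, limma adjusted p = 0.0121), and the difference over all 12 arrays had the opposite sign and was not called (-0.26 ± 0.75, limma adjusted p = 0.860). The call on arrays 1 and 2 was lost without ING2_6K etoposide 1 (limma adjusted p = 0.0548) or ING2_WT etoposide 1 (limma adjusted p = 0.0508), and where 16 was added to each value before taking logs (0.73, limma adjusted p = 0.113).

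SLC2A1, the glucose transporter, read 6351, 5593 and 10622 on the arrays labelled ING2_6K etoposide and 3496, 3219 and 4025 on those labelled ING2_6K DMSO. The ING2_WT arrays read 1143, 1155 and 3017 with etoposide and 1596, 1553 and 9883 with DMSO. The spread between arrays 1 and 2 was small, and ING2_WT DMSO 3 was 6.28 times the mean of its group's other arrays. On arrays 1 and 2 the difference between ING2_6K and ING2_WT was 2.39 ± 0.14 in etoposide, a 5.25-fold difference, and 1.10 ± 0.14 in DMSO (limma adjusted p = 0.000469 and 0.00329). PDK1, which acts further along in glucose use, stayed near background. It read 69.7, 80.4 and 108 with ING2_6K etoposide, 39.6, 69.3 and 63.1 with ING2_6K DMSO, 42.4, 35.2 and -2.19 with ING2_WT etoposide, and 65.7, 23.4 and 90.4 with ING2_WT DMSO. It was called in none of the comparisons of groups, over all 12 arrays or over arrays 1 and 2. Its difference in etoposide on arrays 1 and 2 was 0.98 ± 0.49 (limma adjusted p = 0.155), next to the threshold without ING2_WT DMSO 1 or 2, as given above.

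P4HA1, needed for collagen folding, read 2991, 3324 and 3671 on the arrays labelled ING2_6K etoposide and 1484, 1147 and 1689 on those labelled ING2_6K DMSO (ILMN_1693334). It read 325, 441 and 1658 in ING2_WT etoposide and 498, 435 and 3054 in ING2_WT DMSO. The 3 arrays of each ING2_6K group lay close together, while array 3 of each ING2_WT group was 4.33 times (etoposide) and 6.55 times (DMSO) the mean of arrays 1 and 2. The difference between ING2_6K and ING2_WT on arrays 1 and 2 was 3.07 ± 0.21 in etoposide, an 8.38-fold difference, and 1.49 ± 0.21 in DMSO (limma adjusted p = 0.000631 and 0.00500).

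The mitophagy receptors BNIP3 and BNIP3L were higher in ING2_6K than in ING2_WT on arrays 1 and 2 under both treatment labels. BNIP3 read 6385, 5656 and 2675 on the arrays labelled ING2_6K etoposide and 7018, 4226 and 1454 on those labelled ING2_6K DMSO. In ING2_WT it read 2343, 2066 and 1271 with etoposide and 2167, 2343 and 3069 with DMSO. Array 3 was the lowest of its group in 3 of the 4 groups and the highest in ING2_WT DMSO. BNIP3L on ILMN_1718961 read 1379, 1158 and 844 on the arrays labelled ING2_6K etoposide and 1511, 1026 and 383 on those labelled ING2_6K DMSO, against 520, 571 and 419 in ING2_WT etoposide and 489, 502 and 610 in ING2_WT DMSO. Its other probe, ILMN_2045419, ranged from 189 to 970. On arrays 1 and 2 ING2_6K exceeded ING2_WT by 1.46 ± 0.25 in etoposide and 1.29 ± 0.25 in DMSO for BNIP3, by 1.22 ± 0.21 and 1.33 ± 0.21 for BNIP3L on ILMN_1718961, and by 1.15 ± 0.16 and 0.92 ± 0.16 on ILMN_2045419. Etoposide and DMSO arrays numbered 1 and 2 were not called different for any of these 3 probes in either form.

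NDRG1 read 4835, 4378 and 2042 on the arrays labelled ING2_6K etoposide and 1871, 1385 and 989 on those labelled ING2_6K DMSO. In ING2_WT it read 1142, 952 and 1014 with etoposide and 558, 406 and 1755 with DMSO. On arrays 1 and 2 it was called higher in ING2_6K than in ING2_WT under both treatment labels. As labelled it was also higher with etoposide in both forms, by 1.53 in ING2_6K and 1.13 in ING2_WT. With the sign of the ING2_6K effect turned, it ran opposite ways in the 2 forms (-1.53 and 1.13). The difference between ING2_6K and ING2_WT on those arrays was 2.16 ± 0.23 in etoposide and 1.76 ± 0.23 in DMSO (limma adjusted p = 0.00136 and 0.00377). DDIT4, the mTORC1 inhibitor, read 1141, 1001 and 2018 on the arrays labelled ING2_6K etoposide and 783, 712 and 648 on those labelled ING2_6K DMSO. It read 570, 396 and 455 in ING2_WT etoposide and 656, 376 and 2018 in ING2_WT DMSO. The differences on arrays 1 and 2 were 1.17 ± 0.30 in etoposide, which was called, and 0.59 ± 0.30 in DMSO, which was not (limma adjusted p = 0.0212 and 0.198). The etoposide call was lost without ING2_6K etoposide 1 (limma adjusted p = 0.0869), ING2_6K etoposide 2 (0.0604) or ING2_WT etoposide 2 (0.0833).

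**Figure D2:**
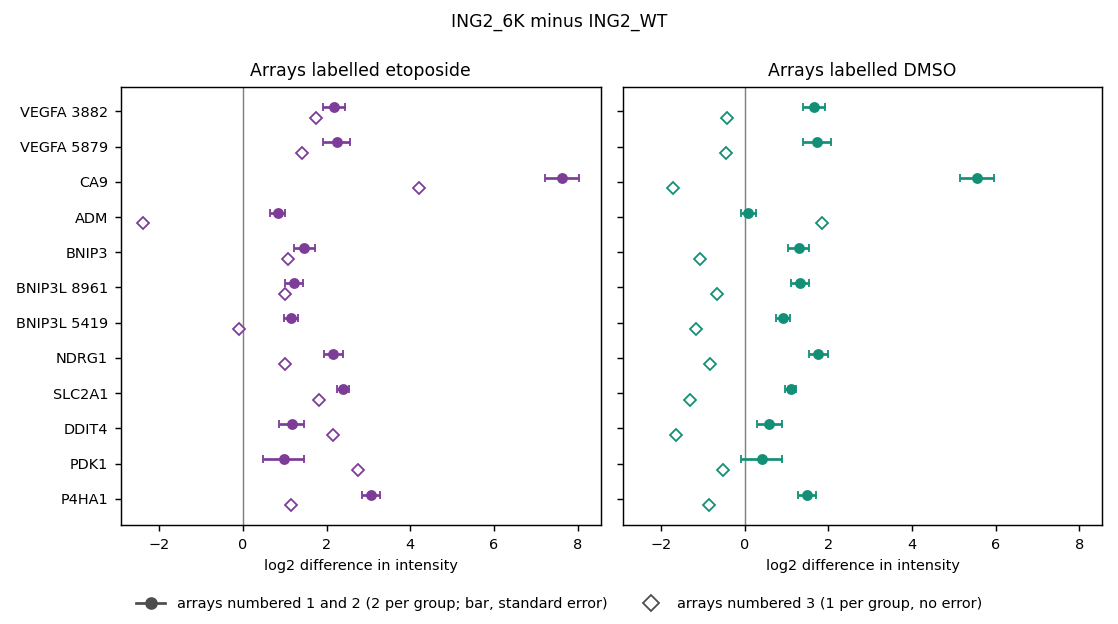
ING2_6K minus ING2_WT, as log2 difference in intensity, for each of the 12 probes among arrays labelled etoposide (left) and DMSO (right); circles are the limma estimates from arrays numbered 1 and 2 with their standard error, and diamonds single pairs of arrays numbered 3 with no error. Probes of 1 gene are told apart by the last 4 characters of their ID. In DMSO all circles lie above 0 and 11 of the 12 diamonds below 0.

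In DMSO the arrays numbered 3 ran the other way. There, 11 of the 12 probes were lower in ING2_6K than in ING2_WT and ADM alone was higher, with a median of -0.84. In etoposide 10 of the 12 were higher in ING2_6K at arrays 3, with a median of 1.28, and ADM (36.7 against 193) and BNIP3L on ILMN_2045419 (-0.09) were lower. Counts of signs at arrays 3, here and below, rest on single arrays and have no share over all probes beside them. They cannot be read as particular to these genes. Where ING2_WT etoposide 3 enters, they also use the array on which different probes of single genes disagreed. The difference between ING2_6K and ING2_WT, averaged over both treatments, was then set at arrays 3 against arrays 1 and 2, a test added after these values were seen. It was lower at arrays 3 for 9 of the 12 probes and higher for 0, against 6.36% of all probes called lower. CA9, at background in ING2_WT on arrays 1 and 2, differed most, with an estimate of -3.69 or below once values under 64 were set to 64 (limma adjusted p = 0.00235). P4HA1 (-2.13 ± 0.26) and NDRG1 (-1.86 ± 0.28) followed, with limma adjusted p of 0.00357 and 0.00718. In this test the single array 3 of a group is taken to vary as arrays 1 and 2 do, and without ING2_6K etoposide 1 it called 5 of the 12.

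The arrays numbered 3 were then set against arrays 1 and 2 over all 4 groups. There, 4 of the 12 probes were higher at arrays 3 than at arrays 1 and 2 and 0 lower, against 15.1% of all probes called higher. These were both VEGFA probes (1.63 ± 0.29 and 1.71 ± 0.34), P4HA1 (1.36 ± 0.38) and SLC2A1 (1.28 ± 0.31), with limma adjusted p of 0.00410, 0.00546, 0.0214 and 0.0121. Each of the 4 was above 0 in all 4 groups. BNIP3 had an estimate of -0.85 ± 0.32 and the BNIP3L probes of -0.59 ± 0.27 and -0.66 ± 0.31, none of which was called (limma adjusted p = 0.0613, 0.120 and 0.116). Without ING2_WT DMSO 3 the test called 3 probes higher and 3 lower. By group, ING2_WT DMSO 3 was above the mean of its arrays 1 and 2 for all 12 probes, although all 3 ADM values were under 64. The widest gap was that of CA9, at least 4.28 with values under 64 set to 64, and that of VEGFA on ILMN_2375879 came next (3.04). ING2_6K DMSO 3 was above for 6 probes and below for 6.

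**Figure D3:**
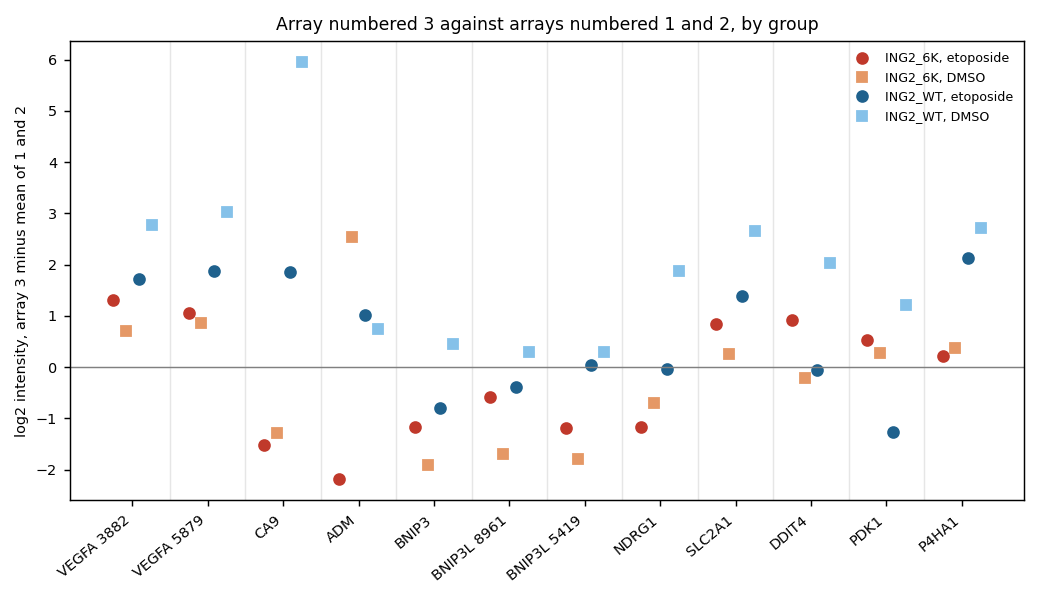
Array numbered 3 minus the mean of arrays 1 and 2 (log2 intensity, values under 16 set to 16) for each of the 12 probes, with a point for each of the groups ING2_6K etoposide, ING2_6K DMSO, ING2_WT etoposide and ING2_WT DMSO. All ING2_WT DMSO points lie above 0, that of CA9 highest at 5.96 with arrays 1 and 2 at background, and both VEGFA probes, SLC2A1 and P4HA1 lie above 0 in all 4 groups.

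Etoposide was then set against DMSO within each ING2 form, which asks whether DNA damage itself moved these transcripts. On the arrays labelled ING2_6K and numbered 1 and 2, 5 of the 12 probes were called higher with etoposide and 0 lower, against 16.8% of all probes called higher. They were ADM (at least 2.61-fold, above), CA9 (2.17 ± 0.41), NDRG1 (1.53 ± 0.23), P4HA1 (1.28 ± 0.21) and SLC2A1 (0.84 ± 0.14), with limma adjusted p of 0.00963, 0.00522, 0.00696 and 0.00675 for the last 4. All 12 probes had estimates above 0, with a median of 0.53, against 46.5% of all probes above 0 and a median of -0.0642. Of the 11 probes other than ADM 4 were called. The same 5 probes were called with each of the 8 arrays left out in turn, whereas CA9 lost its call with no filter on dim probes (limma adjusted p = 0.0746) and BNIP3L on ILMN_2045419 gained one with cyclic loess scaling (0.0449). At arrays 3, 11 of the 12 ING2_6K probes were higher with etoposide, with a median of 1.02. Over all 12 arrays, 0 of 12 were called, against 1.35% of all probes in either direction, and 2 had an unadjusted p under 0.05. Since CDKN1A and TOP2A ran against the ING2_6K treatment labels, the direction of these 5 differences rests on the labels alone.

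In ING2_WT, whose treatment labels the damage markers followed, arrays 1 and 2 gave 3 called probes of 12, against 28.9% of all probes in either direction. ADM passed the filter there through etoposide arrays alone, and of the other 11 probes 1 was called higher and 1 lower. ADM (at least 1.49-fold, above) and NDRG1 (1.13 ± 0.23, limma adjusted p = 0.0142) were higher with etoposide, and SLC2A1 was lower (-0.45 ± 0.14, limma adjusted p = 0.0490). The call of SLC2A1 was lost on leaving out any of 6 arrays (limma adjusted p from 0.0689 to 0.171; kept without ING2_6K etoposide 1 or 2), and that of NDRG1 with no filter on dim probes (limma adjusted p = 0.0730), as was that of SLC2A1 (0.0527; 0.0630 with 75th percentile scaling), and without ING2_WT etoposide 1 (limma adjusted p = 0.0584) or ING2_WT DMSO 2 (limma adjusted p = 0.0758). CA9, VEGFA, BNIP3, BNIP3L, DDIT4, PDK1 and P4HA1 were not called, with estimates from -0.36 to 0.17. At arrays 3, 11 of the 12 probes were lower with etoposide, with a median of -1.32, CA9 the most (-3.99), and ADM was higher (193 against 26.8). This single pair holds ING2_WT etoposide 3, the array on which different probes of single genes disagreed. Its other array, ING2_WT DMSO 3, was above its group's arrays 1 and 2 for all 12 probes. Over all 12 arrays 0 of 12 were called, against 4.29% of all probes (also 0 of 12 with the replicate number as a block, against 8.71%), and 1 had an unadjusted p under 0.05.

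The difference between the etoposide effects, ING2_6K minus ING2_WT, was tested directly, as labelled. On arrays 1 and 2 it was above 0 and called for 3 of the 12 probes and below 0 for 0, against 35.8% of all probes called in either direction. These were SLC2A1 (1.29 ± 0.19), P4HA1 (1.58 ± 0.30) and CA9 (2.06 ± 0.58), with limma adjusted p of 0.00409, 0.00902 and 0.0322. For CA9 the ING2_WT side was at background, and the call was lost with no filter on dim probes (limma adjusted p = 0.177) and on leaving out any of 5 arrays: limma adjusted p was 0.0815 without ING2_6K etoposide 1, 0.0732 and 0.0783 without ING2_6K DMSO 1 and 2, 0.0660 without ING2_WT etoposide 1 and 0.0920 without ING2_WT DMSO 2. ADM gained a call with a floor of 64 (0.83, limma adjusted p = 0.0255) and without ING2_WT etoposide 2 (0.0316). Over all 12 arrays 0 of 12 were called, against 5.52% of all probes in either direction, and 1 had an unadjusted p under 0.05. Because marker genes ran against the ING2_6K treatment labels, the difference was also computed with the sign of the ING2_6K effect turned, a check added after the data were seen. It was then below 0 and called for 3 of the 12 probes, ADM (-5.92 ± 0.25, with DMSO arrays at background), NDRG1 (-2.67 ± 0.32) and CA9 (-2.28 ± 0.58), with limma adjusted p of 0.000958, 0.00944 and 0.0328, on arrays 1 and 2, against 25.1% of all probes called in either direction. SLC2A1 (-0.38 ± 0.19) and P4HA1 (-0.98 ± 0.30) were not called (limma adjusted p = 0.185 and 0.0545). ADM passed the filter on these arrays through etoposide arrays alone, so its call with the sign turned is a description. Neither count of 3 of 12 exceeded its share of all probes called in either direction. Which members were called, and in which direction, depended on the ING2_6K labels.

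**Figure D4:**
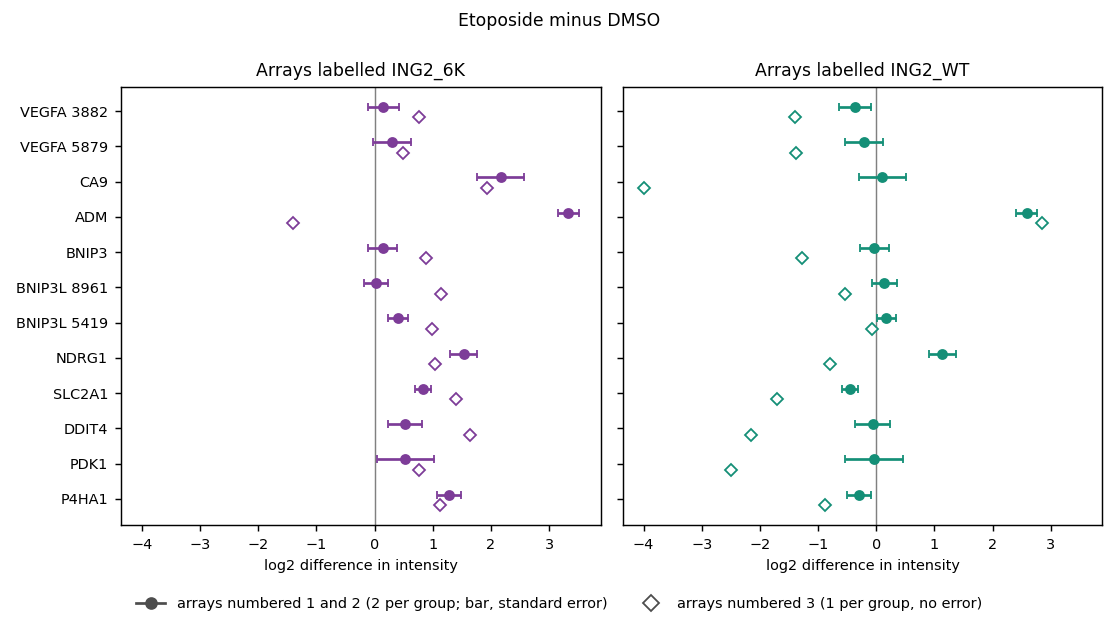
Etoposide minus DMSO, as log2 difference in intensity, for each of the 12 probes among arrays labelled ING2_6K (left) and ING2_WT (right); circles are the limma estimates from arrays numbered 1 and 2 with their standard error, and diamonds single pairs of arrays numbered 3 with no error. In ING2_6K all circles lie above 0, and in ING2_WT 11 of the 12 diamonds lie below 0, with ADM above.

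Other hypoxia-response genes, from a list drawn up alongside the members, were read the same way. Of 56 listed, 43 had a probe bright enough to test. On arrays 1 and 2, 27 were higher in ING2_6K than in ING2_WT in etoposide and 2 lower (median 0.94, against -0.0178 over all probes), with 19.4% of all probes called higher and 21.5% lower. In DMSO 19 were higher and 1 lower (median 0.77, against 0.0312), with 11.9% of all probes called higher and 11.7% lower. Over all 12 arrays the counts were 3 higher and 1 lower in etoposide, against 2.98% and 1.71% of all probes, and 0 in DMSO, against 2.20%. Examples on arrays 1 and 2 were TFRC, which imports iron (2.54 ± 0.15 in etoposide and 1.46 ± 0.15 in DMSO), STC2, a secreted glycoprotein (2.03 ± 0.18 in etoposide), and TXNIP, which restrains glucose uptake (2.52 ± 0.24 in DMSO). HMOX1, the haem-degrading enzyme that is also a target of oxidative stress, went the other way in etoposide (-3.28 ± 0.27). At arrays 3 against arrays 1 and 2, the difference between the forms was lower for 18 of the 43 and higher for 2 (median -0.93), against 6.36% of all probes called lower, with TFRC (-2.17 ± 0.19) and TXNIP (-2.49 ± 0.30) among the 18. Across the 4 groups, 15 of the 43 were higher at arrays 3 and 3 lower, against 15.1% and 19.1% of all probes, with SLC2A3, a second glucose transporter (1.52 ± 0.24), SLC16A3, the lactate exporter (1.30 ± 0.22), and PLOD1, a collagen-modifying hydroxylase (1.80 ± 0.33), among the higher.

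The glycolytic enzymes, all 15 of which were tested, were called higher in ING2_6K for 10 and lower for 1 in etoposide on arrays 1 and 2 (median 0.99), against 19.4% and 21.5% of all probes, and higher for 4 and lower for 0 in DMSO (median 0.21), against 11.9% and 11.7%. ALDOC (3.13 ± 0.28 in etoposide and 3.72 ± 0.28 in DMSO), ENO2 (2.77 ± 0.25 and 1.42 ± 0.25) and LDHA (1.51 ± 0.17 in etoposide) led them. Over all 12 arrays 3 were higher and 0 lower in etoposide, against 2.98% and 1.71% of all probes. In DMSO 0 were called over all 12 arrays, against 2.20%. PGK1, an enzyme of this list, read 18.9 on ILMN_1755749 but 1549 on ILMN_2216852 on the array ING2_WT etoposide 3, so that tests of this list that use that array rest on probes that disagree there. Among 32 relatives and partners of the members, 19 were tested. On arrays 1 and 2, 10 were higher and 2 lower in etoposide (median 0.60), and 6 were higher and 1 lower in DMSO (median 0.47), against the same shares of all probes. They included P4HB, the partner subunit of P4HA1 (1.47 ± 0.16 and 0.98 ± 0.16), and NRP1, a VEGFA co-receptor (3.70 ± 0.19 in etoposide). Over all 12 arrays 2 of the 19 were higher and 1 lower in etoposide, and 0 were called in DMSO, against the shares given for the glycolytic enzymes.

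The oxygen-sensing pathway was read from its own list. Of 19 listed components 17 were tested, and on arrays 1 and 2, 2 were higher and 3 lower in ING2_6K in etoposide (median -0.0298), against 19.4% and 21.5% of all probes, and 3 were higher and 0 lower in DMSO (median 0.0915), against 11.9% and 11.7%. CITED2, which competes with HIF1A for a coactivator and is itself a HIF target, was lower in ING2_6K in etoposide (-1.67 ± 0.22) and higher in DMSO (1.28 ± 0.22). EPAS1 (HIF-2 alpha) was higher in DMSO (1.15 ± 0.27). Over all 12 arrays 0 of the 17 were higher and 1 lower in etoposide, against 2.98% and 1.71% of all probes. In DMSO 0 were called over all 12 arrays, against 2.20%. HIF1A on ILMN_2379788 read 2155, 1932 and 3350 on the arrays labelled ING2_6K etoposide and 2773, 3109 and 3241 on those labelled ING2_6K DMSO, against 1921, 1710 and 4926 in ING2_WT etoposide and 2306, 2145 and 3405 in ING2_WT DMSO. On this probe array 3 was the highest of its group in all 4 groups. On ILMN_1681283 and ILMN_1763260 it was the lowest in ING2_WT etoposide, at 134 against 579 and 431, and at 41.0 against 503 and 649. HIF1A is regulated mainly at the protein level, which these arrays do not measure. The lists share some genes (GPI, EGLN3, CA12, SLC2A3, P4HA2 and others), so their counts are not independent.

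The probes whose pattern over the 12 arrays was most like the mean standardised level of the 12 member probes were ENO2 (Pearson r = 0.95), ENPP1 (0.95), PMEPA1 (0.94), MMP9 (0.93), SH3PXD2A (0.93) and ZP1 (0.92). After group means were subtracted, WDR54 (0.96), ZNF653 (0.95), SEC31A (0.93), PMEPA1 (0.92), TXNIP (0.92) and ENPP1 (0.91) came first. These values describe likeness over 12 arrays that fall into groups and share the shift of the arrays numbered 3, and carry no test.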

How the data were processed

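RNA of 12 HT1080 samples was amplified, biotin-labelled and hybridised to Illumina BeadArrays, and groups were taken from the labels. Each deposited value is the linear intensity of a probe, as the authors processed it in Genespring. Which background correction and scaling they chose is not given in the sources used here, and 0.434% to 26.9% of an array's values were below 0. The other deposited column used, of unit other, holds each probe's gene symbol. A further 24 columns of that table fit none of the labels and were left aside. No bead numbers or detection values were used, so depth is unknown and the number of arrays limits the precision.

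Intensities were quantile-normalised and log2-transformed with a floor of 16. Probes at 64 or more on at least 3 arrays were kept (15459 of 48797; 14242 with the arrays numbered 3 left out and the 8 others normalised again). A 4-group linear model, which corresponds to the study's analysis of variance, was fitted in limma 3.58.1 (R 4.3.3), with Benjamini-Hochberg adjustment over all probes kept and a threshold of 0.05. Fitted fold changes of dim probes depend on the floor of 16, so bounds were taken with values under 64 set to 64. Same-numbered arrays deviated together, with every r above 0.1, between etoposide and DMSO in ING2_WT (0.218 to 0.319) and between the ING2 forms in DMSO (0.368 to 0.635). A shift of the arrays numbered 3 that the groups share also gives such r. These r therefore cannot decide whether the numbers pair the arrays. The main model had no term for the number, and the replicate block was an alternative. The steps were tested on simulated data. Alternatives covered scaling, filter, floor, 1 probe for each gene, only the groups compared, replicate block, array weights, the ING2_6K effect with its sign turned and left-out arrays. Every member probe was named, and up to 3 probes of each other list by smallest adjusted p. The members and lists were chosen with earlier results of these data known. Promoter sequences came from a RefSeq table (GRCh38.p14).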

Additional observations from a re-analysis of the deposited data

Results flagged for a closer look

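For 9 of the 12 probes, the log2 difference between ING2_6K and ING2_WT, averaged over both treatment labels, was lower at the arrays numbered 3 than at those numbered 1 and 2 by a test of that difference, which was added after the data were seen. The difference of differences was -5.31 for CA9 (limma adjusted p = 0.00162), which depends on the floor because CA9 was at background in ING2_WT on arrays 1 and 2 (-3.69 with values under 64 set to 64, limma adjusted p = 0.00235). It was -2.13 for P4HA1 (0.00357), -1.86 for NDRG1 (0.00718), -1.66 and -1.10 for the BNIP3L probes ILMN_2045419 and ILMN_1718961 (0.00347 and 0.0324), -1.47 for SLC2A1 (0.00290), -1.36 for BNIP3 (0.0272), and -1.50 and -1.24 for the VEGFA probes ILMN_2375879 and ILMN_1803882 (0.0473 and 0.0449). ADM (-0.71, 0.0677), DDIT4 (-0.62, 0.281) and PDK1 (0.43, 0.652) were not called. The calls of VEGFA dropped out under 10 of 17 alternatives on ILMN_2375879 and 10 of 15 on ILMN_1803882. That of BNIP3L on ILMN_1718961 did so under 7 of 17 and that of BNIP3 under 4 of 17. By this test 6.36% of all probes were called lower. Each group has a single array numbered 3, taken here to vary as arrays 1 and 2 do. On that of ING2_WT etoposide different probes of single genes disagreed, as given above. The study's text calls the replicates biological, what else sets the arrays numbered 3 apart is not given in the sources used here, and its part in these differences was not tested.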

How the results depend on the processing

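The member counts depended on the arrays numbered 3. Without them the calls were 3 for etoposide minus DMSO in ING2_WT, 5 in ING2_6K, 3 for the difference of these effects, 9 for ING2_6K minus ING2_WT in DMSO and 11 in etoposide, and with array weights 2, 5, 2, 9 and 10, against 0, 0, 0, 0 and 1 over all 12 arrays. In etoposide the count fell to 0 with no filter on dim probes and with 64 or more required on all arrays, which leaves CA9 untested. Leaving out single arrays gave 0 to 1, 0 to 0, 0 to 0, 0 to 1 and 0 to 5 calls: 1 in ING2_WT without ING2_6K DMSO 3 or ING2_6K etoposide 3, 1 in DMSO without ING2_WT DMSO 3, and in etoposide 5 without ING2_WT DMSO 3, 3 without ING2_WT etoposide 3, 2 without ING2_6K DMSO 3 and 0 without ING2_6K etoposide 1, 2 or 3 or ING2_WT etoposide 1 or 2. The arrays numbered 3 against 1 and 2 gave 4 to 6 calls with single arrays left out, and the difference between ING2 forms set at arrays 3 against 1 and 2 gave 5 with no filter and 5 to 9 with single arrays left out. ADM, ING2_6K minus ING2_WT in etoposide, changed sign, to 0.83 without the arrays numbered 3. The cause was not tested. Of 1842 single-probe estimates under an alternative, 1722 kept their side of the threshold, 79 passed it and 40 dropped below it, besides ADM.

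A replicate block gave member counts of 0 for etoposide minus DMSO in either form, for the difference of these effects and for ING2_6K minus ING2_WT in DMSO, and 5 in etoposide (both VEGFA probes, CA9, SLC2A1 and P4HA1). Same-numbered arrays deviated together with r above 0.1 in 16 of 18 pairs. The lowest r was -0.0658 for ING2_6K etoposide and DMSO and 0.0747 for ING2_6K and ING2_WT in etoposide, and 8 of 12 arrays resembled their own number best. As given above, these r cannot decide whether the numbers pair the arrays. The block changed no member's call for etoposide minus DMSO in ING2_WT or for ING2_6K minus ING2_WT in DMSO. Counts over all probes also moved. For etoposide minus DMSO in ING2_WT 663 probes were called, against 275 with 64 or more on all arrays, 100 with only the groups compared, 1346 with the block, 4121 without the arrays numbered 3, 4631 with array weights and 280 to 910 with single arrays left out. In ING2_6K the counts were 209, against 67, 356 (block), 5142, 5884 and 106 to 323. For the difference of effects they were 854, against 546, 1851 (block), 5105, 5982 and 569 to 1539. For ING2_6K minus ING2_WT in DMSO they were 340, against 124, 514 (block), 3369, 4617 and 182 to 539, and in etoposide 725, against 424, 307 (only the groups compared), 2169 (block), 5823, 6200 and 201 to 1397. For the arrays numbered 3 they were 5284, and 3466 to 6200 with single arrays left out. No scaling moved the share of higher calls by over 10 percentage points.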
